A study of Rattus norvegicus with 6 samples.

Results

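The genes described here are 6 rat genes of thyroid hormone action and iodide transport: the deiodinases Dio1, Dio2 and Dio3, the nuclear receptors Thra and Thrb, and the iodide transporter Slc5a5. They were chosen by name, with earlier results of these data known, and each was read from its brightest probe, so a probe was selected on its own brightness over the arrays. All 6 lie on the array, among 15443 genes that could be named. Slc5a5 has a dimmer probe as well, and the other genes have 1 probe each, printed as 2 spots.

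The study measured gene expression on 6 single-colour Agilent arrays, 4 of rat heart muscle and 2 of cultured cells, all from Sprague Dawley rats of 13 weeks. Treated myocardium (2 arrays, numbered 1 and 3) was infarcted and injected with adipose-derived stem cells (ADSCs) that carried the tracer 124I-HIB, hexadecyl-4-124I-iodobenzoate, a fat-soluble molecule that lodges in membranes and holds radioactive iodine. PBS myocardium (1 array) was infarcted and injected with phosphate-buffered saline, and sham myocardium (1 array) came from an operated rat described without infarction. Labelled ADSCs and unlabelled ADSCs (1 array each) carried the tracer or did not, and were taken at 14 days of culture. The labels count 21 days for all 4 myocardial samples from a sham operation, and they do not say whether the treated arrays came from separate animals. Any spread given for that pair may therefore be technical, and the comparisons of single arrays have no error and no test. Tissue arrays hold a mixture of cells, in which fewer cells of a type and less RNA per cell cannot be told apart.

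Thyroid hormone leaves the thyroid mainly as thyroxine (T4), which has little activity until an outer-ring iodine is removed to give triiodothyronine (T3). Dio1 and Dio2 carry out that activating step, while Dio3 removes an inner-ring iodine and inactivates both T4 and T3. T3 acts through Thra and Thrb, receptors that bind DNA with retinoid X receptors and hold corepressors when no hormone is bound. Slc5a5, the sodium/iodide symporter, brings iodide into thyroid cells. In rodent heart Thra is the main receptor gene, and Dio3 is known to return in injured or overloaded ventricle.

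The promoters of the genes whose values differ most are shown first, with those of Dio2 and Thra for contrast, since the deiodinase and receptor genes have unlike start regions. Each is the 250 bases before the gene's start from RefSeq (rat build GRCr8), 5′ to 3′ on the gene's strand: Dio3 at chr6:135106822-135107071 on the plus strand, Dio2 at chr6:115410595-115410844 on the minus strand, Thra (the promoter listed as 1 of 2) at chr10:84197891-84198140 on the plus strand, and Thrb at chr15:10461447-10461696 on the minus strand. Capitals mark 3 motifs. For the TATA box the letters searched were TATAAA. The box named CCAAT was searched by those letters. For the GC box they were GGGCGG, which appears as CCGCCC where the motif lies on the opposite strand.
Dio3: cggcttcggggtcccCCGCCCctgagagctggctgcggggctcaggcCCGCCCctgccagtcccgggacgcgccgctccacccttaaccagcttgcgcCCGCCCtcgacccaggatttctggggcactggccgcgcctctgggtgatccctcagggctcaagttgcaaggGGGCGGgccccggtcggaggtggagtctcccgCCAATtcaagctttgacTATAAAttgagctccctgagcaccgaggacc
Dio2: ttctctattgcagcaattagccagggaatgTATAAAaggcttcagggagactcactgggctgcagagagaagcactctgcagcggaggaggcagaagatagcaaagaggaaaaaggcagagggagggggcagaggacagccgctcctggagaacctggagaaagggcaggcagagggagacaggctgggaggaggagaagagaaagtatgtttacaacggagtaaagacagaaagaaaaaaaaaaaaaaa
Thra: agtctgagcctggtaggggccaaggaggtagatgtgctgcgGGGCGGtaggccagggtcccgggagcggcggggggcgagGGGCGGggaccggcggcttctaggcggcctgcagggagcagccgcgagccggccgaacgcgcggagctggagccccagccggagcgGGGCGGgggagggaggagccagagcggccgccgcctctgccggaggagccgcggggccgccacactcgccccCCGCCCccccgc
Thrb: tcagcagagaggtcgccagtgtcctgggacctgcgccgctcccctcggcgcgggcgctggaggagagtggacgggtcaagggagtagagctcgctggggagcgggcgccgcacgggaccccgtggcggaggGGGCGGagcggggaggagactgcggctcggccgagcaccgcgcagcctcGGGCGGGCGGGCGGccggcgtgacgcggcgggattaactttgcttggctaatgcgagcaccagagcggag

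The Dio3 promoter held a TATA box 31 bases before the start, a CCAAT box at 48 bases and 4 GC boxes, at 80, 152, 203 and 235 bases, and its GC content was 68.8%. The Dio2 promoter had no GC box, a TATA box only at 220 bases, and a GC content of 49.6%. Neither receptor promoter held a TATA or CCAAT box. Thra and Thrb each had 4 GC boxes, at 12, 84, 170 and 209 bases in Thra and at 62, 66, 70 and 119 bases in Thrb, where the nearest 3 overlap each other. The GC content was 79.6% for Thra and 74.0% for Thrb, against a median of 51.2% over 33469 promoters of the same length. Searched on both strands, TATAAA occurred in 12.9% of those promoters, CCAAT in 34.0% and GGGCGG in 30.5%. The receptor half-site AGGTCA, present in 14.1% of all promoters, was not in the window of any of the 6 genes. These matches describe letters and do not show that a factor binds.

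Levels below are log2 of the processed signal relative to the array's own 75th percentile, with the signal itself in scanner units where it is low. A probe counted as well above background on an array when at least 1 of its 2 spots carried the scanner software's flag for that. The percentile was a signal of 1276 and 1058 on treated arrays 1 and 3, 1120 on PBS, 772 on sham, 2615 on labelled and 2360 on unlabelled cells. A probe of equal signal therefore takes a lower scaled level on the cell arrays, and a higher one on sham, than on the other arrays.

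**Figure D1:**
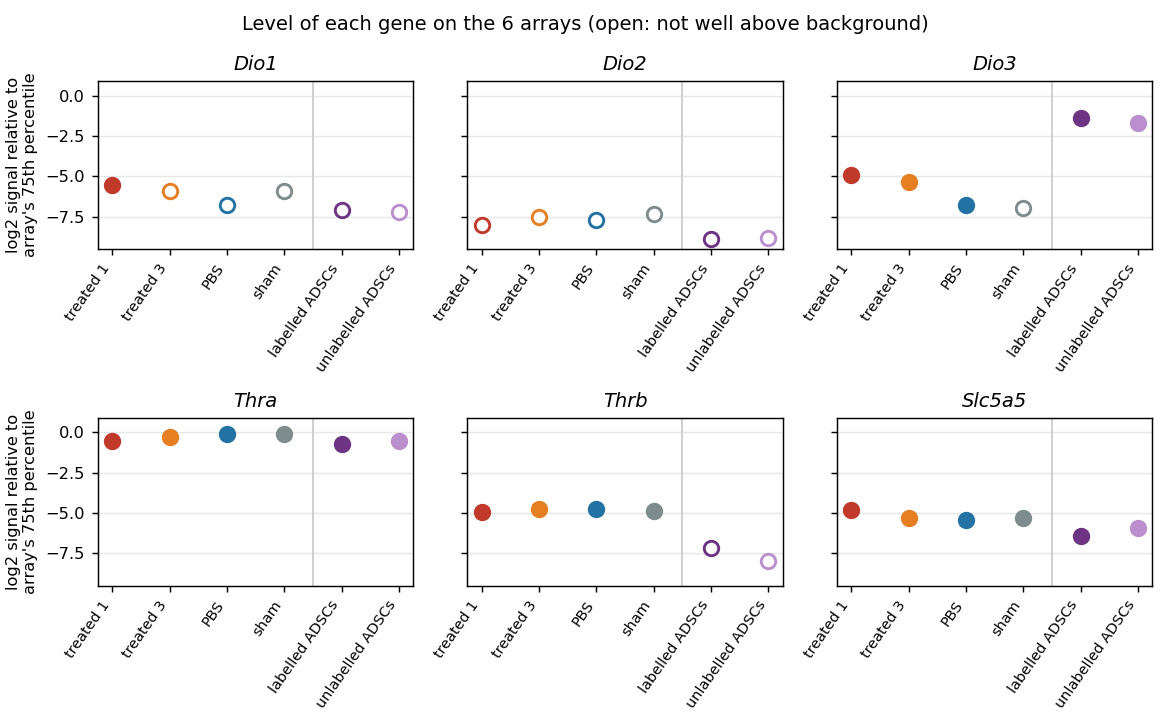
Log2 level of each of the 6 genes relative to the array's 75th percentile (vertical axis) on the 6 arrays (horizontal axis), 1 point an array, open where the probe was not well above background. Dio3 stands at -1.42 and -1.68 in the cells and at or below -4.90 in myocardium, while Thra stays between -0.72 and -0.10 on all 6 arrays.

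Dio3, the inactivating deiodinase, was bright in cultured ADSCs and dim in heart muscle. Its level was -4.90 and -5.35 in treated myocardium (signals of 42.8 and 26.0), -6.75 in PBS (10.4) and -6.98 in sham (6.13). In labelled ADSCs it was -1.42 (977) and in unlabelled ADSCs -1.68 (736). The order ran from the labelled and unlabelled cells through the treated pair to PBS and sham, and neither the cells from each other nor PBS from sham were further apart than the treated arrays were. On the sham array no spot of the probe was well above background, so only a bound holds there.

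**Figure D2:**
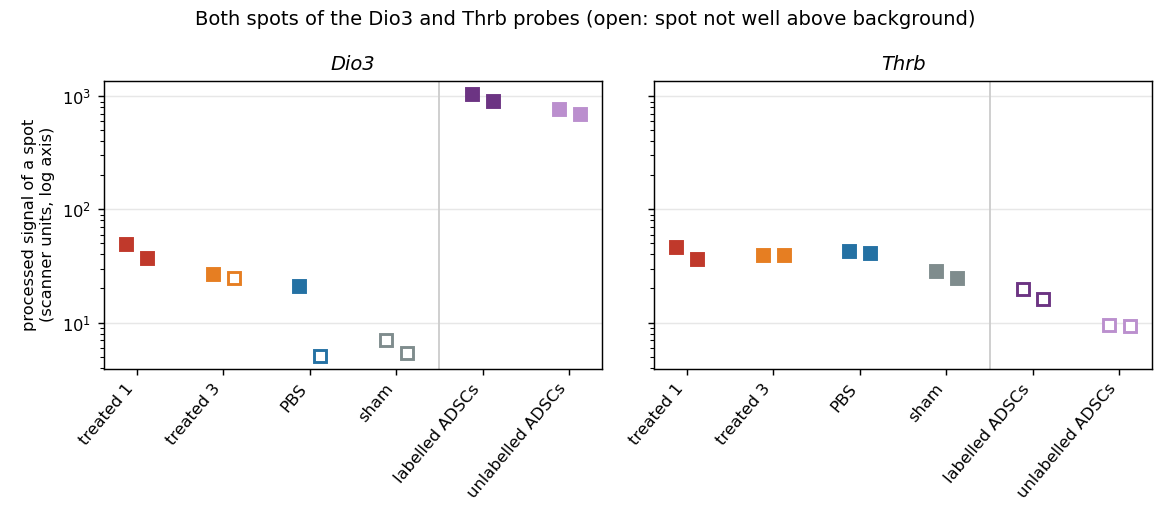
Processed signal (log axis, scanner units) of both spots of the Dio3 and Thrb probes on each array, 1 square a spot, open where the spot was not well above background. The PBS spots of Dio3 read 21.1 and 5.10, while the Thrb spots of each myocardial array lie close together.

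The Dio3 spots read 49.8 and 36.9 on treated array 1, 27.1 and 24.9 on treated array 3, 21.1 and 5.10 on PBS, and 7.04 and 5.33 on sham. On the cell arrays they read 1047 and 912 in labelled cells and 778 and 697 in unlabelled cells. The PBS pair is the one that disagrees: its spots were 2.05 apart on the log2 scale, and over 2702 PBS probes of signal 5 to 15 the median gap between spots was 0.62 and the 95th percentile 1.87.

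Dio3 in treated myocardium was 1.63 ± 0.32 above PBS on the log2 scale (SD, n = 2 treated arrays against 1), or 3.10-fold, with 1.40 and 1.86 for the single treated arrays. In limma's fit over the 4 myocardial arrays, adjusted over 19603 features, this difference had an adjusted p of 0.339 and did not pass. Taking only the brighter spot of each probe, an alternative chosen after seeing the data, lowered the difference to 0.75, and normexp background correction gave 0.41. Against sham the treated pair was 1.85 ± 0.32 higher (adjusted p = 0.350 in limma). Sham was not well above background, and set at the lowest level that was on its array it gives 3.04-fold on the scaled levels. Normexp reduced the difference of 1.85 to 0.03 and the brighter spots gave 1.79. PBS was 0.22 above sham with no fold to give, since sham is a bound. Normexp turned that difference to -0.38, while the brighter spots raised it to 1.05. Averaging the spots before taking logs, also chosen after seeing the data, gave 0.55.

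Across the 4 genes well above background on all 3 arrays, only Dio3 was at least 2-fold apart in both treated arrays against PBS. The same held for 1.26% of 17338 features (0.45% higher and 0.813% lower). None of the 3 genes measurable against sham passed, where 0.973% of 17052 features did (0.581% higher, 0.393% lower). Limma called no gene of the 6, and its share over all features was 0.0% in either treated comparison at an adjusted p under 0.05, with 1894 features against PBS and 1886 against sham at an unadjusted p under 0.05, where 980 would come by chance. Other limma settings gave 0 to 82 calls against PBS and 0 to 51 against sham, none of them a gene of the 6. Both comparisons share the treated arrays, so they are not separate evidence.

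Proliferation genes were higher with Dio3 in treated against PBS myocardium, and their part in its difference was not tested. Of 4 proliferation genes on the array (Mki67, Ccna2, Cdk1 and Ccnb1), all 4 were higher in treated than in PBS myocardium, with a median of 1.06. None passed limma there, while all 4 had an unadjusted p under 0.05. All 4 were lower in PBS than in sham (median -0.59), a comparison in which the direction of Dio3 is not settled. Their summed level, in multiples of the 75th percentile, was 1.28 and 1.52 in treated, 0.659 in PBS, 1.04 in sham, 8.98 in labelled and 6.25 in unlabelled cells. Of 5 mesenchymal stromal markers, 4 were above background on each myocardial array, with summed levels of 5.77 and 5.86 in treated, 6.12 in PBS, 5.57 in sham, 17.8 in labelled and 16.9 in unlabelled cells. Thy1, a surface antigen that defines cultured ADSCs, was not well above background on any myocardial array, with signals of 6.21 and 5.11 in treated, 9.30 in PBS and 4.03 in sham, against 4626 in labelled and 4479 in unlabelled cells.

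The PBS array stood apart in markers of other cell types, whose part in the treated against PBS values was not tested. The 8 atrial genes had a summed level of 165 and 142 in treated, 450 in PBS and 168 in sham myocardium. All 8 fibroblast markers were lower in treated than in PBS (median -0.44), with summed levels of 62.9 and 70.4 in treated, 83.6 in PBS and 72.6 in sham. Of 5 neuron and Schwann cell markers, the 4 measurable were lower in treated than in PBS (median -1.36), and the list summed to 0.293 and 0.542 in treated, 1.01 in PBS and 0.355 in sham. No gene of these lists passed limma, while 5 atrial, 4 fibroblast and 4 neuron and Schwann markers had an unadjusted p under 0.05.

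Cells and myocardium differed in Dio3 by 4.44 on the log2 scale, or 21.8-fold by the measured means, although only 3 of the 4 myocardial arrays were well above background and the sham value is a bound. The gap between the lower cell array and the highest myocardial array was 3.22, or 9.29-fold, so the groups did not overlap, and the cells stood 11.9-fold above the treated mean. Under normexp the difference was 2.16. Material, time and row on the slide all differ between these arrays and cannot be told apart, so this is a description with no test. Dio3 was 0.26 higher in labelled than in unlabelled cells, or 1.20-fold, on 1 array each.

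Dio1, the deiodinase best known from liver and kidney, was hardly measurable. Its level was -5.55 and -5.90 in treated myocardium (signals of 27.2 and 17.7), -6.77 in PBS (10.2) and -5.94 in sham (12.6). In cells it was -7.09 when labelled (19.2) and -7.19 when unlabelled (16.2). Only treated array 1 was well above background, through 1 of its 2 spots. The treated mean lay 1.05 ± 0.25 above PBS (SD, n = 2 against 1), and limma gave an adjusted p of 0.416. On the scaled levels that is 2.07-fold, with PBS and 1 of 2 treated arrays not well above background. The difference of 1.05 became 0.12 under normexp. Against sham the treated mean was 0.21 ± 0.25 higher, within the spread of the pair. That difference was -0.37 under normexp and 0.04 without treated array 1, so its direction is not settled.

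Dio2, the activating deiodinase of brown fat, brain and pituitary, was not well above background on any array. Its signal was 5.01 and 5.84 in treated, 5.45 in PBS, 4.77 in sham, 5.50 in labelled and 5.19 in unlabelled cells. No fold can be given, and the probe says only that the signal stayed in the background. Ucp1, the uncoupling protein that defines brown fat, was not well above background on any of the 6 arrays either. Of 4 listed brown fat markers, the other 2, Cidea and Ppargc1a, were well above background on every myocardial array. On each cell array 1 of the 4 was.

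Thra, whose transcripts encode a T3 receptor and a splice form that binds no hormone, was measured in every sample. Its level was -0.52 and -0.29 in treated myocardium, -0.10 in PBS, -0.11 in sham, -0.72 in labelled and -0.55 in unlabelled cells. Ordered from high to low, PBS and sham came first, then treated array 3, treated array 1, unlabelled and labelled cells, and no neighbours were further apart than the treated pair. The treated mean was -0.31 ± 0.16 against PBS (limma adjusted p = 0.711) and -0.30 ± 0.16 against sham (adjusted p = 0.661). Cells were -0.38 against myocardium with a gap of 0.03 between the groups, and labelled cells -0.17 against unlabelled ones. The array has 1 Thra probe, so splice forms were not separated, and in RefSeq the gene overlaps Nr1d1 and Med24.

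Thrb, the other T3 receptor gene, was steady in heart muscle and not well above background in ADSCs. Its level was -4.95 and -4.75 in treated (signals of 41.2 and 39.3), -4.73 in PBS (42.2) and -4.86 in sham (26.5). In labelled cells it was -7.19 (17.9) and in unlabelled cells -7.97 (9.40). In the order of levels, no neighbours among the 4 myocardial arrays were further apart than the treated pair. The treated mean was -0.12 ± 0.14 against PBS (limma adjusted p = 0.878) and 0.01 ± 0.14 against sham (adjusted p = 0.987), and PBS was 0.13 above sham. Under normexp treated against sham was -0.28 and PBS against sham -0.18. By processed signal ADSCs were at least 6.47-fold lower than myocardium, with 2.24 on the log2 scale between the groups. The mean difference of -2.76 became -1.57 under normexp and -1.94 under quantile normalization, so that bound does not hold under other background correction or scaling.

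Slc5a5 stayed dim everywhere. Its level was -4.80 and -5.32 in treated myocardium (signals of 45.7 and 26.4), -5.42 in PBS (26.1) and -5.31 in sham (19.5). In labelled cells it was -6.45 (29.8) and in unlabelled cells -5.93 (38.8). Its signals in cells lay within the range of the myocardial arrays, although the scaled level was 0.98 lower in cells on the log2 scale, a difference that quantile normalization brought to -0.21. The treated mean was 0.36 ± 0.37 above PBS and 0.24 ± 0.37 above sham (limma adjusted p = 0.774 and 0.790), within the spread of the pair. The difference against sham turned to -0.28 under normexp and to -0.02 without treated array 1. Labelled cells, which carry an iodine tracer, were -0.53 against unlabelled cells, and the mean of both Slc5a5 probes gave 0.02. The dimmer probe was not well above background on any array.

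**Figure D3:**
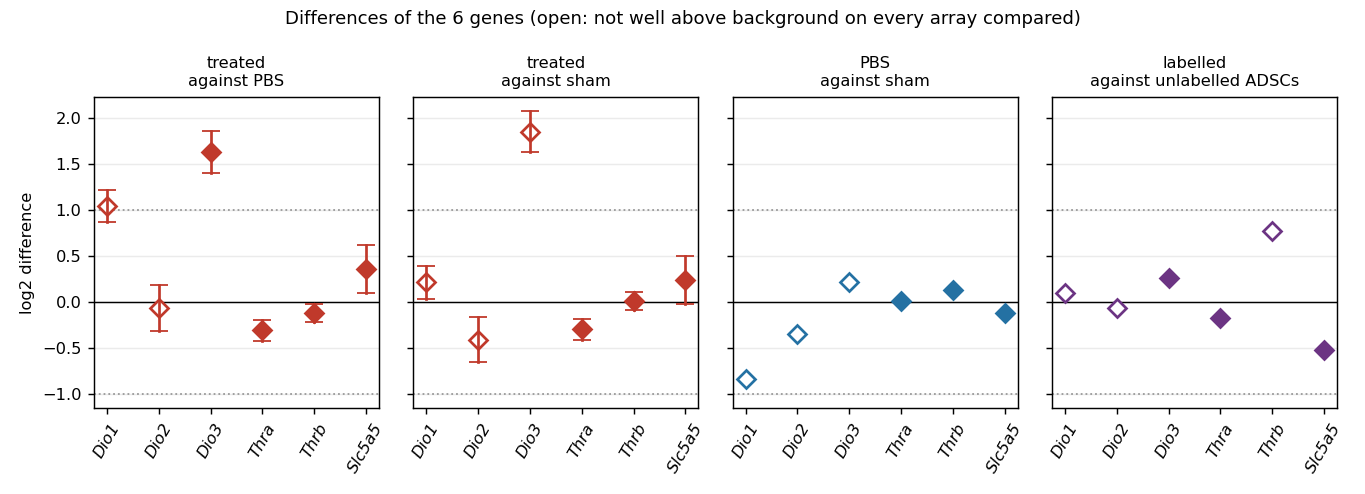
Log2 difference of each of the 6 genes (vertical axis) in 4 comparisons, with bars from the lower to the higher treated array and open diamonds where some array compared was not well above background. Among filled points, only Dio3 in treated against PBS (1.63) lies past the dotted 2-fold lines.

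No gene of the 6 was 2-fold apart in PBS against sham, where 3.67% of 17255 features were (2.23% higher and 1.44% lower). None was 2-fold apart in labelled against unlabelled cells, where 1.04% of 18271 features were (0.449% higher, 0.591% lower). Of the genes above background on all 6 arrays, Thra and Slc5a5, neither had cell and myocardial groups 2-fold apart with no overlap, as 30.1% of 15886 features had (14.2% higher and 15.9% lower in cells). Counting genes above background on every array of cells or of myocardium adds Dio3, higher, and Thrb, lower, beside 34.0% of 19317 features (15.6% higher, 18.3% lower). Dio3 enters that count only through the cells and Thrb only through the myocardium, where each is high. Entry therefore favours a difference, and the count shows nothing further about them.

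The rest of the pathway was read from lists chosen with earlier results known. Of 11 thyroid hormone transporters, 5 were measurable in treated against PBS, with a median of -0.03 beside 0.01 for all features. The amino acid and hormone carrier Slc7a8 was lowest, with levels of -3.17 and -2.98 in treated, -2.06 in PBS, -2.45 in sham, -1.64 in labelled and -1.09 in unlabelled cells. Its treated mean was -1.01 ± 0.13 against PBS (limma adjusted p = 0.360), so not both arrays reached 2-fold.

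In PBS against sham the organic anion carrier Slco1a4 was the only transporter of 6 past 2-fold, at -2.34, beside 3.67% of all features. Its level was -6.29 and -4.71 in treated, -4.52 in PBS and -2.18 in sham, and on treated array 1 it was not well above background. In the cells, Slco4a1 was -2.73 when labelled and -4.45 when unlabelled, a difference of 1.73 on 1 array each. It was the only one of 5 transporters past 2-fold, beside 1.04% of all features. Slc7a5, the large neutral amino acid carrier, was -3.25 in labelled and -2.43 in unlabelled cells, and its partner Slc3a2 was 1.62 and 1.64. All 4 transporters measured on every array were higher in cells than in myocardium, with a median of 1.32 beside 0.03 for all features. That filter left out Slc16a10 and Slco1a4, neither of them well above background in cells. Slc16a10 was -4.06 and -3.85 in treated, -3.92 in PBS, -3.52 in sham, -8.70 in labelled and -8.01 in unlabelled cells. It also left out Slc7a5, well above background in both cell samples but only in PBS among the myocardial arrays.

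No receptor partner was 2-fold apart in the heart. All 12 on the array were measurable in treated against PBS, 7 higher and 5 lower with a median of 0.07, and none passed limma. The lowest was Nr1d1 (Rev-erb alpha), a clock repressor encoded opposite Thra, at -1.80 and -1.72 in treated, -0.81 in PBS and -1.32 in sham, a treated difference of -0.95 ± 0.06 against PBS (limma adjusted p = 0.346). The orphan receptor Nr2f2 was -0.72 ± 0.08 against PBS and its relative Nr2f1 0.46 ± 0.30. The corepressor Ncor1 had levels between -0.62 and -0.37 on all 6 arrays. Rxrg, a retinoid X receptor of muscle, had levels of 2.90 and 2.96 in treated, 2.88 in PBS and 3.12 in sham, and was not well above background in either cell sample.

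**Figure D4:**
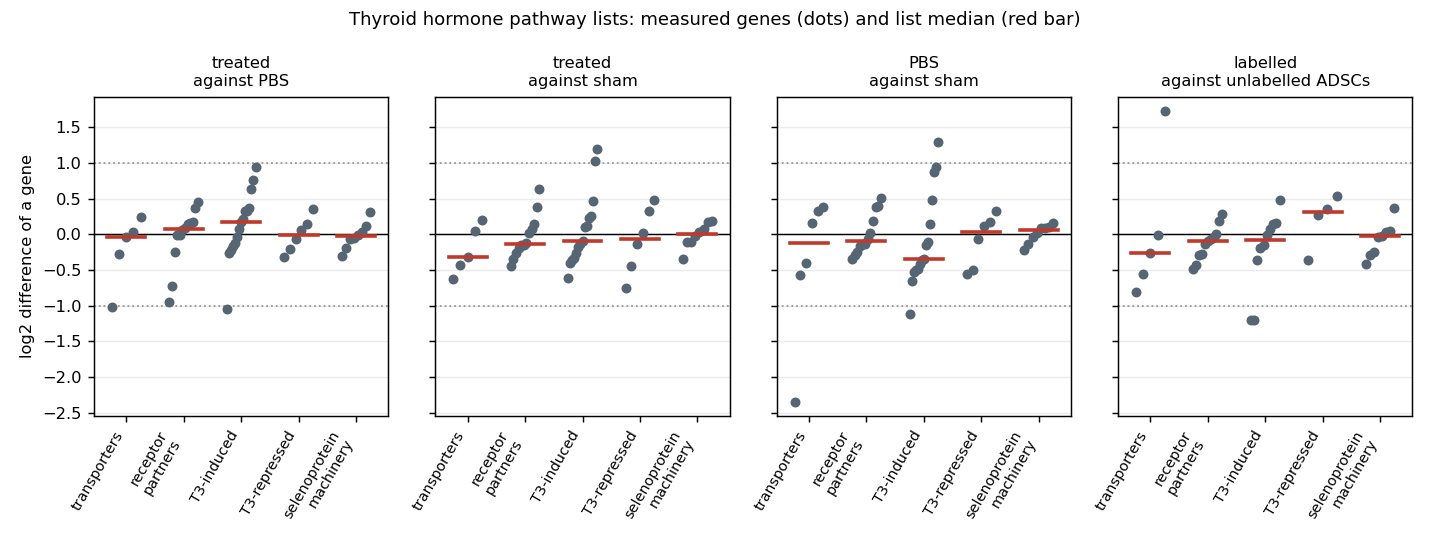
Log2 differences of the measurable genes of 5 pathway lists (dots, vertical axis) in 4 comparisons, with the list's median as a red bar and dotted lines at 2-fold. List medians lie between -0.35 (T3-induced genes, PBS against sham) and 0.31 (T3-repressed genes, labelled against unlabelled cells).

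Genes that T3 induces in heart or more widely lay on both sides of their PBS and sham levels. Of 15 measurable, 5 were higher and 10 lower in PBS than in sham, with a median of -0.35 beside -0.05 for all features, and 9 were higher and 6 lower in treated than in PBS (median 0.17). Hcn2, a pacemaker channel, was -2.80 and -2.75 in treated, -3.72 in PBS and -2.60 in sham. That is 0.95 ± 0.03 for treated against PBS (limma adjusted p = 0.346) and -1.12 for PBS against sham. Kcnd2, a potassium channel, was -2.27 and -0.87 in treated, -1.30 in PBS and -2.59 in sham, so the treated arrays lay on either side of PBS. Ucp3, a mitochondrial carrier, was 1.20 ± 0.01 higher in treated than in sham (limma adjusted p = 0.339) and 0.33 ± 0.01 higher than in PBS.

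The T3-responsive myosin genes lay close together on the 4 myocardial arrays. Myh6, the T3-induced fast myosin, was 8.37 and 8.63 in treated, 8.62 in PBS and 9.11 in sham, and Myh7, the T3-repressed slow myosin, was 8.14 and 8.19 in treated, 8.23 in PBS and 8.30 in sham. Against sham the treated means were -0.61 ± 0.18 for Myh6 and -0.14 ± 0.04 for Myh7 (limma adjusted p = 0.519 and 0.788). Unscaled Myh6 signals were 420862 and 417710 in treated, 441826 in PBS and 425694 in sham, so its difference depends on the scaling. The calcium pump Atp2a2, with unscaled signals of 188529 and 165915 in treated and 155469 in sham, was -0.40 ± 0.06 against sham. Its T3-repressed inhibitor Pln was -0.45 ± 0.06. All 8 ventricular muscle markers were lower in treated than in sham, with a median of -0.41, and in PBS than in sham, with a median of -0.48, and their part in these values was not tested. Of the 6 T3-repressed genes, 3 were higher and 3 lower in each of the 3 myocardial comparisons, with none 2-fold apart. In labelled against unlabelled cells Thrsp, a lipogenic T3 target, was -1.21 and Hcn2 -1.20, both past 2-fold, among 10 measurable T3-induced genes.

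Around iodide transport, the thyroid gland's own genes were mostly dim. Of 15 on the array, 10 were measurable in treated against PBS. Tg (thyroglobulin) was well above background on all 6 arrays. Its level was -2.89 and -3.24 in treated, -3.23 in PBS, -2.37 in sham, -3.40 in labelled and -3.13 in unlabelled cells. Tshr, the thyrotropin receptor, was above background only on treated array 1, and Iyd, which recovers iodide, on none. The peroxide-forming oxidases were an exception in cells: Duox1 was 1.18 in labelled and 1.18 in unlabelled ADSCs, against -4.41 and -4.55 in treated, -3.59 in PBS and -4.69 in sham. Duox2 was -1.39 in labelled and -1.38 in unlabelled cells, against -5.96 and -5.38 in treated, -4.53 in PBS and -6.10 in sham. PBS was past 2-fold above sham in both oxidases, by 1.57 for Duox2, among 9 measurable thyroid genes and beside 2.23% of all features. The treated means were -1.15 ± 0.41 for Duox2 and -0.89 ± 0.10 for Duox1 against PBS (limma adjusted p = 0.475 and 0.378).

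Binding and supply genes complete the pathway. Ttr, which carries thyroxine in plasma, was 2.65 and 2.63 in treated, 2.91 in PBS and 2.86 in sham, and not well above background in cells. Crym, a cytosolic T3-binding protein, was 2.54 and 2.27 in treated, 2.32 in PBS, 2.44 in sham, -0.32 in labelled and -0.68 in unlabelled cells. Of 9 genes that make or supply selenoproteins, the class to which all deiodinases belong, 8 were measurable, none was 2-fold apart in the myocardial comparisons or between the cells, and Selenop, the plasma selenium carrier, was -0.31 ± 0.08 in treated against PBS. The 4 measurable regulators of Dio2 turnover had none past 2-fold in those comparisons either. Dlk1, which shares an imprinted region with Dio3 in mouse, was -4.71 and -3.70 in treated, -3.60 in PBS, -4.49 in sham and -7.05 in unlabelled cells, and not well above background in labelled cells.

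**Figure D5:**
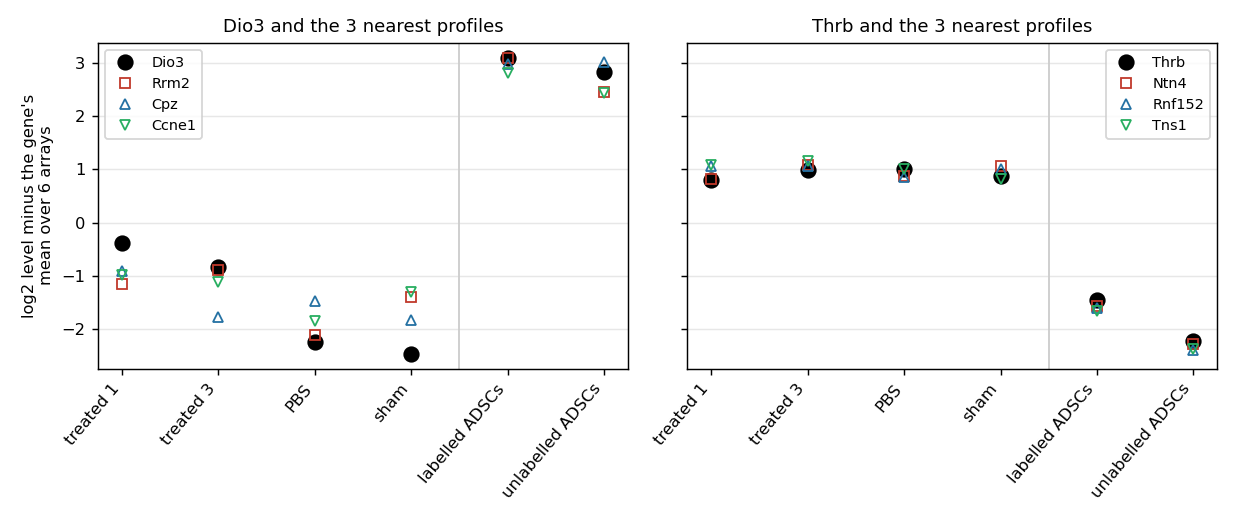
Levels of Dio3 and Thrb and of the 3 named genes with the nearest profiles on the 6 arrays, each as log2 level minus the gene's own mean over the arrays (vertical axis). The nearest genes to Dio3 share its high cell values, at a root mean square distance of 0.56 to 0.61, while those of Thrb follow it within 0.11 to 0.17.

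Profiles were compared over the 6 arrays by the root mean square difference of log2 levels, each centred on its mean, and this is a description of arrays that share material and slide. Nearest to Dio3 among 9874 named genes were Rrm2, a ribonucleotide reductase subunit (0.56), Cpz, a carboxypeptidase (0.61), and Ccne1, cyclin E1 (0.61). For Thrb, among 10435, they were Ntn4, a netrin (0.11), Rnf152 (0.17) and Tns1, a tensin (0.17). Thra lay nearest to Rnf144a (0.03), Jmjd8 (0.04) and Gpbp1 (0.06) among 9743, and Slc5a5 to Svil (0.10), Mterf4 (0.12) and Olr1454 (0.13). Neither cell value of Thrb was well above background, so its likeness there follows background signal, and no likeness is given for Dio1, which was measured on 1 array only.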

How the data were processed

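Total RNA from myocardium or cells was labelled with Cy3 and hybridised to 6 arrays of 1 rat design. The authors deposited each array's scanner output, holding intensity values and the scanner's background, saturation and outlier flags. It covers 58717 spots besides the controls. Per the submitters' processing notes the scanner software was Agilent Feature Extraction 11.0.1.1. The authors' deposited value table holds log2 values made in a way the labels do not describe, and it is blank for Dio1 and Dio2 throughout, and for Dio3 and Slc5a5 in myocardium and Thrb in cells. All arrays lay on 1 slide in 1 scan, so no batch could be tested.

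Control and outlier spots were left out, log2 processed signal was taken relative to each array's 75th percentile, and spots of a probe were averaged. Probes well above background made up 64.4% to 69.4% per array, and no spot was saturated. Names came from a RefSeq gene table (GRCr8) by accession: 18355 of 30367 probes received a symbol, and the brightest probe stood for a gene (27455 features). The file headers name an older build, so no probe position is given. Without a count of molecules, the number of arrays limits the precision.

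Treated against PBS and against sham were tested with limma 3.58.1 (R 4.3.3; Benjamini-Hochberg adjustment, residual df of 1, from the treated pair). Tested on simulated data, the fit missed changes as large as that of Dio3, so failing it does not show that values did not differ. Other comparisons were log2 differences of single arrays, called at 2-fold. For a probe below background in a group, a bound was taken as the brighter group's mean over that of the dim group. Each dim array entered with the higher of its own level and the lowest level well above background on that array. The bound holds for processed signal only, and normexp gave smaller differences for Dio1, Dio3 and Thrb. Alternatives were normexp (offset 50), quantile normalization, the authors' table, the mean of all probes, filters on dim probes, a trended robust spread, 1.5-fold, leaving out each treated array and, chosen after seeing the data, other ways of combining spots and of calling detection.

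The genes, lists and tests were chosen with earlier results of these data known. From each list, the text names at most the 2 highest and 2 lowest measurable genes per comparison, and others where their role made them informative, picked after their values were seen.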

Additional observations from a re-analysis of the deposited data

How the results depend on the processing

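The 2-fold call of Dio3 in treated against PBS myocardium, 1 gene of the 6, became 0 under normexp, in the authors' table, where its myocardial values are blank, with the brighter spot of each probe, when all spots had to be well above background, and when only features above background on all 4 myocardial arrays were kept. Leaving out a treated array gave 1 and 1. Against sham no gene was called, 1 was without a filter on dim probes, and leaving out a treated array gave 0 and 0. Limma's 0 calls against PBS became 82 under normexp, 11 when all spots had to be above background and 58 with a trended robust spread. Its 0 calls against sham became 50 under normexp, 2 in the authors' table, 3 with the filter on all 4 arrays and 51 with the trended robust spread. Between cells and myocardium, 0 genes became 2 when 1 set of arrays above background sufficed. Of 140 single-gene differences under alternatives, 115 moved by less than the spread and 25 by more. None of the differences called at 2-fold changed sign, but 12 values of uncalled ones did, 6 of them under normexp: treated against sham for Dio1 (-0.37), Slc5a5 (-0.28) and Thrb (-0.28), and PBS against sham for Dio3 (-0.38), Thrb (-0.18) and Thra (-0.02). Over all features, the 219 that were 2-fold apart in treated against PBS became 89 under normexp, 846 at 1.5-fold and 828 without a filter, and the 166 against sham became 73, 745 and 820. Leaving out a treated array gave 445 to 512 against PBS and 377 to 414 against sham. PBS against sham had 634, with 240 under normexp and 2278 at 1.5-fold, and labelled against unlabelled cells 190, with 71 and 1188. Quantile normalization moved the higher calls in treated against PBS to 111 of 250, beside 78 of 219. In labelled against unlabelled cells, the higher calls were 82 of 190, beside 75 of 130 under quantile normalization, 94 of 165 in the table and 46 of 71 under normexp. Between cells and myocardium they were 2249 of 4777, beside 2668 of 4803 under quantile normalization and 2741 of 4787 in the table, and 1.5-fold called 7378. The cause of these moves was not tested. Signal near background limits Dio1, Dio2, Dio3 in myocardium, Thrb in cells and Slc5a5. No paired analysis was possible because the groups share fewer than 2 replicate numbers.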
